A study of Ovis aries with 2 samples.

Results

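The potassium channel genes described here were all listed genes of sheep cortex whose symbol begins with KCN followed by further letters and a digit, which covers pore-forming subunits and the auxiliary subunits named with them. The rule leaves out 1 symbol of that form. It gave 49 of 13765 listed features, and RefSeq's gene table of the assembly ARS-UI_Ramb_v3.0 holds all 49. The rule used names only, so the levels below played no part in it. At least 1 unique molecular identifier (UMI, a tag that counts each captured RNA molecule once) was seen for 48 of the 49 genes, and 43 had at least 20 UMIs over both libraries.

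The levels come from nuclear RNA of the cerebral cortex of a wildtype adult female Rambouillet sheep, aged 18 to 36 months by the labels and not treated in life. Droplet-based 3′ single-nucleus sequencing was run on 2 libraries of the same labelled batch, to ask how tissue handling affects the cell types recovered. In the pre-processed library nuclei were isolated straight from the dissected cortex, and in the post-processed library debris and red blood cells were first removed. A treatment label denies that removal for the post-processed library, so the groups rest on the sample titles and the series description. With 1 library per condition from 1 animal there is no replicate, no test was run, and every interval (95%) covers counting error only.

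Potassium channels let potassium leave the cell and so set the resting potential, end the action potential and limit repetitive firing. Voltage-gated, calcium-activated, inwardly rectifying and two-pore channels differ in what opens them, and auxiliary subunits shift their gating or surface number. In the cortex, neurons use different mixes of voltage-gated subunits, astrocytes and oligodendrocytes take up and buffer extracellular potassium through inward rectifiers, and microglia use potassium channels in surveillance and inflammatory signalling.

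The pre-processed library had 9580441 UMIs in 2125 nuclei (median 2524 per nucleus), and the post-processed library had 765208 UMIs in 494 nuclei (median 667.5). The libraries shared 0 barcodes. Nuclei were grouped by clustering without the potassium channel genes, and clusters were named from marker genes with the ending "-like". Neuron-like nuclei numbered 1002 in 6 clusters, all pre-processed. In the post-processed library 0 of 494 nuclei fell in them, which allows a share of up to 0.607%. This depends on the class rule. With each nucleus classed by its largest share of marker UMIs, 7 post-processed nuclei were classed as neurons and 4 as precursors. Astrocyte-like (362 nuclei) and oligodendrocyte precursor-like (107 nuclei) clusters were compared in the pre-processed library only. Microglia-like nuclei numbered 85 pre-processed and 177 post-processed, and oligodendrocyte-like nuclei 180 and 57. Levels are UMIs per 1000000 UMIs of the listed genes (CPM). They can be compared between groups of nuclei for a given gene, and they are not compared between genes because no transcript length was used.

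Potassium channel genes made up 4.31% of the UMIs of neuron-like nuclei. Without KCNIP4 that share was 2.32%. The share was 1.72% in precursor-like, 1.08% in microglia-like, 0.580% in astrocyte-like and 0.521% in oligodendrocyte-like nuclei of the pre-processed library. Of the 43 genes with at least 20 UMIs, 25 had their highest class level in neurons, 8 in precursors, 4 in astrocytes, 4 in oligodendrocytes and 2 in microglia. Neurons stood at least 2-fold above every glial class for 15 of the 43, against a background of 6.34% of all 7220 genes with that many UMIs in these classes. A glial class stood at least 2-fold above neurons for 12 of the 43, against a background of 42%. When each nucleus was instead classed by its largest share of marker UMIs, these counts were 3 and 7. The share of all genes under that class rule is not given, so these lower counts have no background to be read against.

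**Figure D1:**
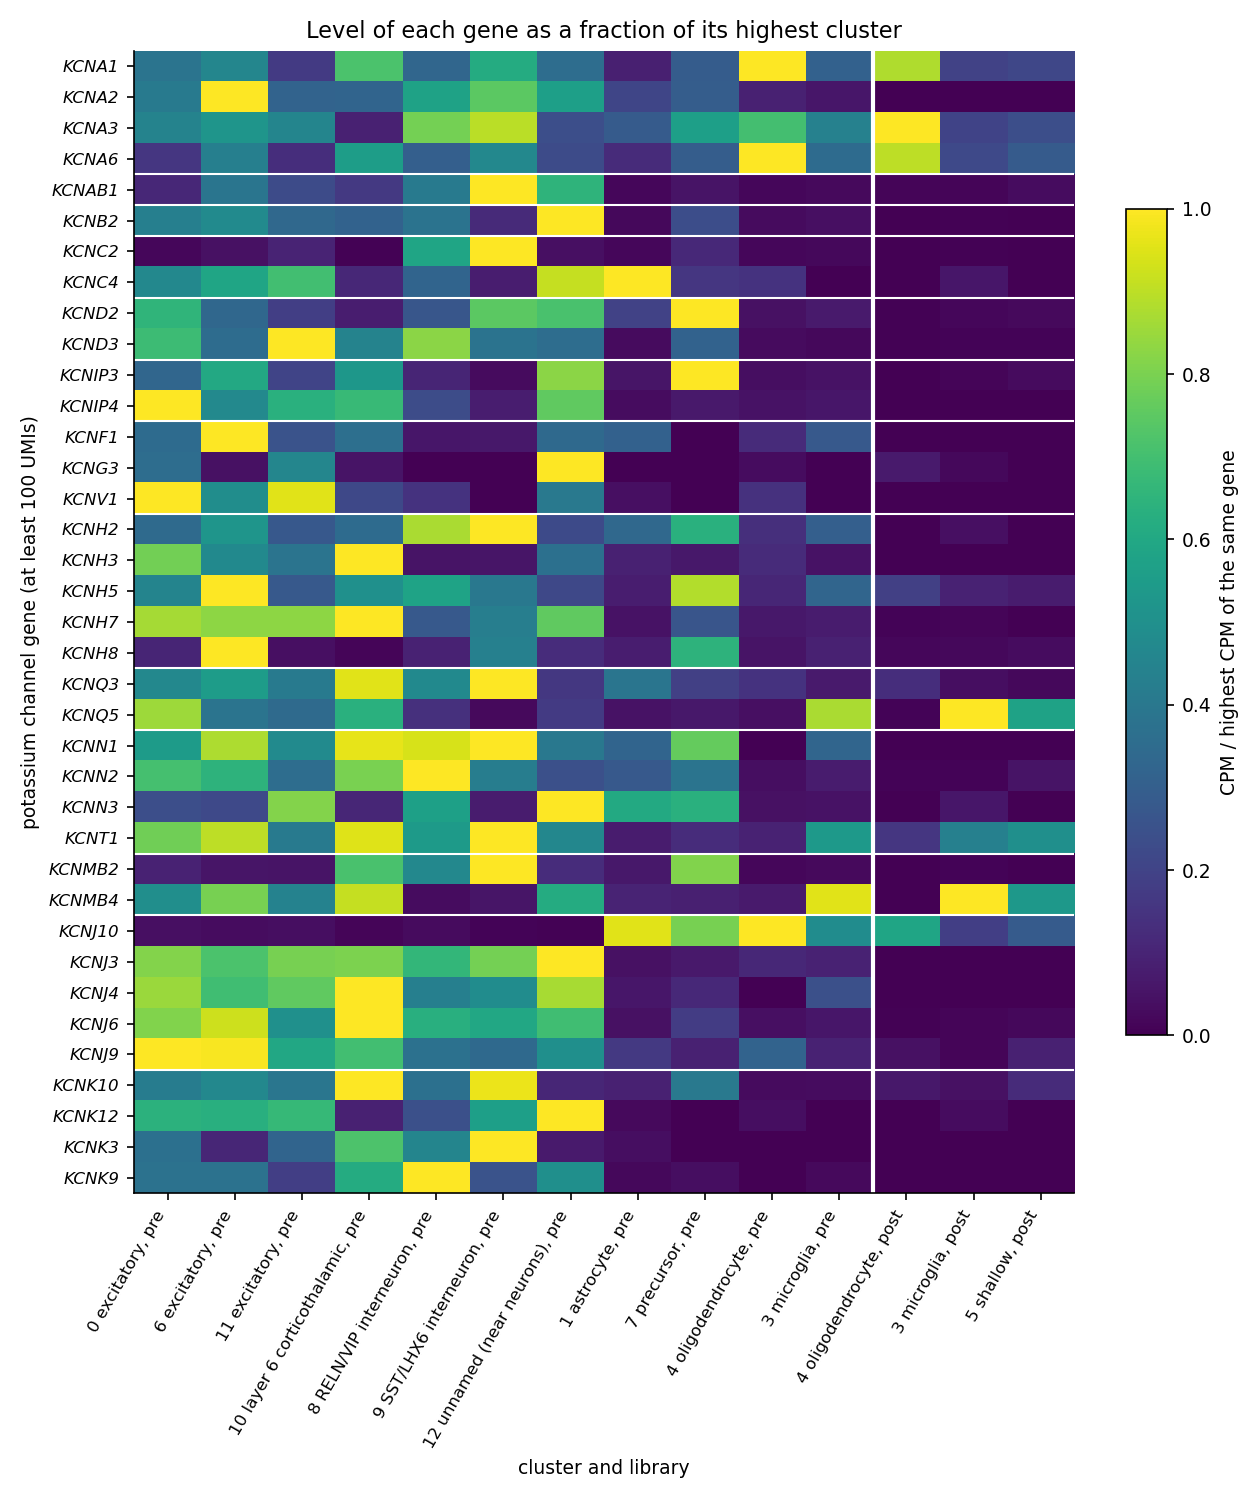
Level of potassium channel genes with at least 100 UMIs (rows, grouped by channel family) in the drawn clusters and libraries (columns). Each level is CPM divided by the highest CPM of the same gene among these columns, from 0 (dark) to 1 (bright). The unnamed cluster 2 and the vascular-like cluster are not drawn, so their levels do not enter the scale. The columns right of the white line are post-processed. Bright cells lie mostly in the neuronal columns. Genes bright in a glial column include KCNJ10, KCNA1, KCNA6, KCNQ5, KCNIP3, KCND2, KCNMB2 and KCNMB4, and KCNJ10 is dark in the named neuronal columns.

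UMIs of pan-neuronal markers were also found in glial nuclei of the pre-processed library. For 7 pan-neuronal markers the ratio of glial to neuronal level had a median of 0.133 in astrocyte-like, 0.114 in oligodendrocyte-like, 0.204 in precursor-like and 0.242 in microglia-like nuclei. The highest ratio belonged to the neurofilament gene NEFL in every class, from 1.18 in precursors to 1.89 in microglia. A potassium channel gene was counted as above this neuronal background in a glial class when its ratio was at least 2 times that highest ratio, with at least 10 UMIs in the class. In at least 1 glial class 8 of the 43 genes passed this limit, against a background of 30.2% of all genes. By class, the count was 3 in astrocytes (background 18.9%), 3 in oligodendrocytes (background 12.1%), 4 in precursors (background 9.99%) and 1 in microglia (background 7.92%). For precursors the share of potassium channel genes was close to that of all genes.

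**Figure D2:**
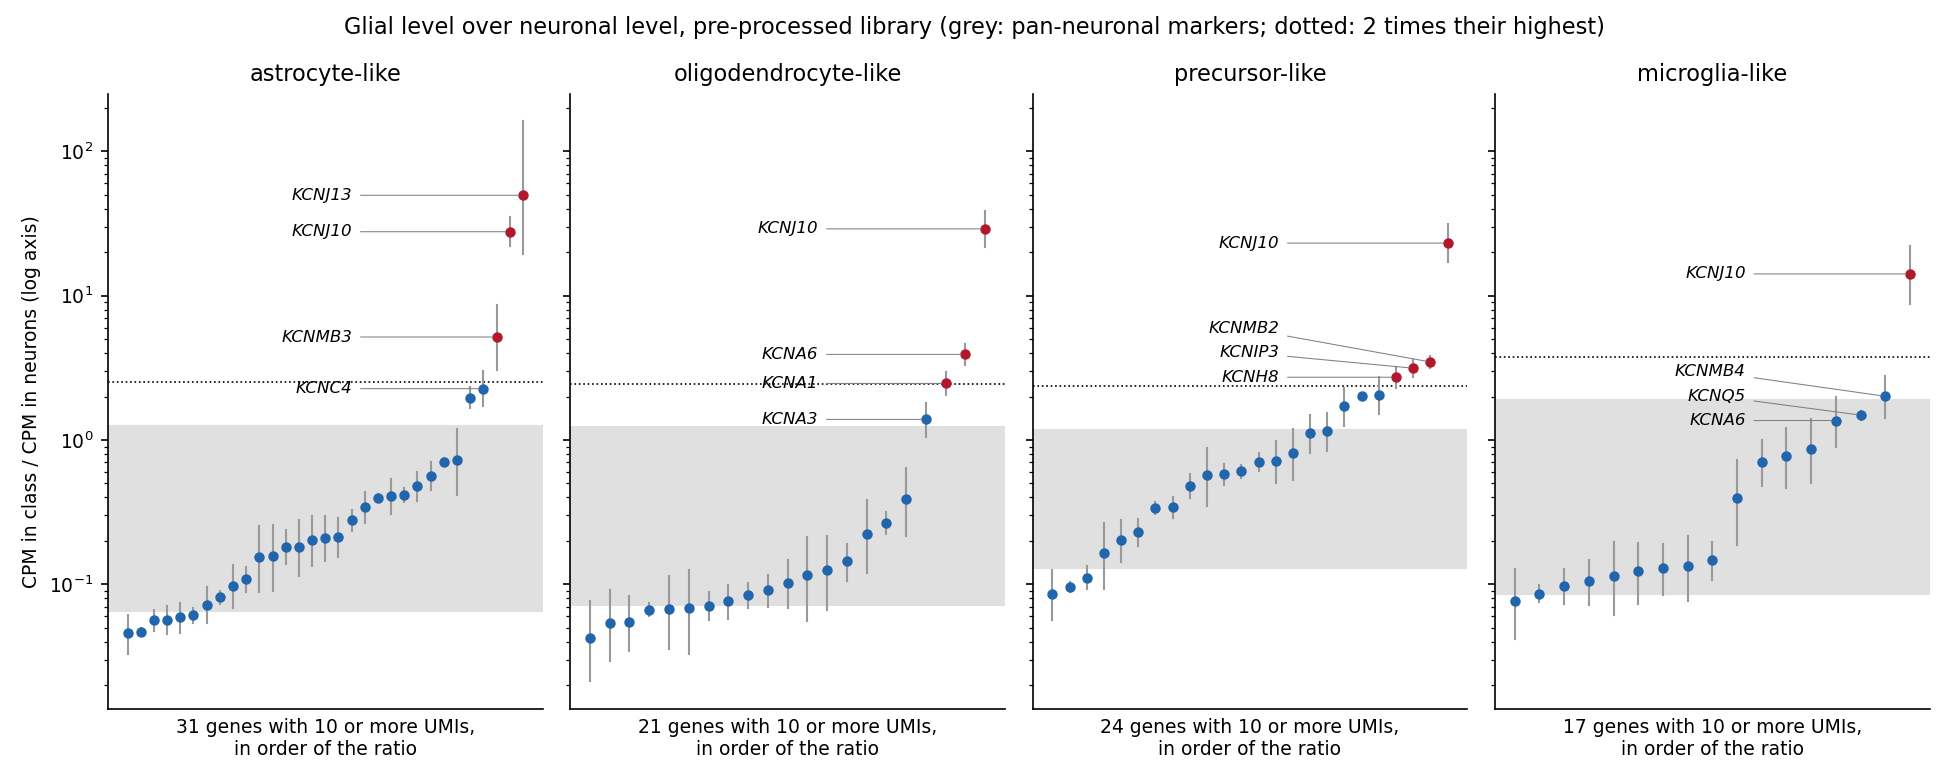
Ratio of glial to neuronal CPM for potassium channel genes with at least 10 UMIs in the class, pre-processed library, on a log axis, with 95% counting intervals as bars. The grey band spans the 7 pan-neuronal markers, the dotted line is 2 times their highest ratio, and red points pass it. KCNJ10 passes the line in all 4 glial classes, and most genes lie within or below the band.

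The Kv1 genes encode low-threshold voltage-gated subunits, several of them concentrated along axons. KCNA1 stood at 464 CPM in oligodendrocyte-like nuclei (interval 390 to 548) and at 188 CPM in neurons. KCNA6 stood at 591 CPM in oligodendrocyte-like nuclei (507 to 685), at 151 CPM in neurons and at 72.2 CPM in astrocytes. Both therefore had their highest class in oligodendrocytes, 2.47-fold (2.05 to 2.94) and 3.92-fold (3.32 to 4.61) above neurons, and both passed the limit for neuronal background. That limit was 2.45 in oligodendrocytes, so KCNA1 passed it only narrowly and its interval spans it. After each nucleus was thinned to 900 UMIs, KCNA6 was seen in 39.4% of oligodendrocyte-like nuclei (32.3 to 47.0%), 10.7% of neurons and 4.70% of astrocytes. Without thinning these shares were 52.8%, 43.7% and 11%, at median depths of 1490.5, 4884 and 2594 UMIs.

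In the post-processed library, KCNA1 was at 409 CPM and KCNA6 at 532 CPM in oligodendrocyte-like nuclei. The log2 ratios to the pre-processed library were −0.17 (−0.65 to 0.27) and −0.15 (−0.56 to 0.25), so the levels of the 2 libraries were within counting error. KCNA1 and KCNA6 lie next to each other in the RefSeq gene order. KCNA3, known in immune cells as a regulator of calcium entry, was at 207 CPM in oligodendrocyte-like nuclei before processing, at 295 CPM in those after it, and at 149 CPM in neurons. Its ratio of oligodendrocytes to neurons was 1.39 (1.06 to 1.80), which lies below the limit.

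Microglia-like nuclei held KCNA1 at 145 CPM, KCNA6 at 206 CPM and KCNA3 at 129 CPM before processing, and at 91.3, 130 and 58.8 CPM after it. The 4 listed oligodendrocyte markers summed to 1736 CPM in microglia-like nuclei before processing and 2153 CPM afterwards, against 5038 and 5934 CPM in oligodendrocyte-like nuclei. All 4 (UGT8, ERMN, ST18 and CLDN11) were detected in microglia-like nuclei of both libraries, and their part in the Kv1 values there was not tested.

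KCNA2, an axonal partner of KCNA1, differed from it across classes. It was at 131 CPM in neurons and 23.4 CPM in oligodendrocyte-like nuclei. Among neurons it was highest in cluster 6, an excitatory cluster led by KITLG and COL9A1, at 253 CPM, and lowest in cluster 11 at 80.2 CPM. KCNA5 had 33 UMIs in neurons, 23 of them in cluster 6. KCNA10, known from hair cells of the inner ear, had 0 UMIs in both libraries, which allows up to 0.313 CPM in the pre-processed and 3.92 CPM in the post-processed library.

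The neuronal clusters were excitatory clusters 0, 6 and 11, cluster 10 with markers of layer 6 corticothalamic neurons, interneuron cluster 8 with RELN/VIP markers and interneuron cluster 9 with SST/LHX6 markers. Among the 36 potassium channel genes with at least 100 UMIs in neurons, 18 had a highest cluster at least 2-fold above the median of the 6 clusters. The background was 15.9% of all 4764 genes with that many UMIs. The median ratio of the highest to the median cluster was 1.99 over the 36 genes and 1.40 over all 4764. The highest cluster was 9 for 10 genes (27.8%, against 21.1% of all 4764 genes), 10 for 8 (22.2% against 17.1%) and 8 for 3 (8.33% against 15.8%). Clusters 0, 6 and 11 were highest for 5 genes each (13.9%, against 8.42%, 17.9% and 19.6% of all genes). Cluster 11 was the deepest, with a median of 14297 UMIs per nucleus, and cluster 6 the shallowest of the 6, with a median of 2524.

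KCNC2, a Kv3 subunit of the fast currents that allow rapid firing, had the largest such ratio, 13.8. It stood at 5572 CPM (5378 to 5771) in SST/LHX6-like and 3284 CPM (3140 to 3433) in RELN/VIP-like interneurons. In the excitatory clusters KCNC2 was at 92.8 CPM in cluster 0, 240 CPM in cluster 6 and 564 CPM in cluster 11, and in the layer 6 cluster at 37.3 CPM (20.9 to 61.5). The interneuron clusters thus lay above the 4 other neuronal clusters, and between the 2 interneuron clusters the ratio was 1.70 (1.60 to 1.80). Thinned to 900 UMIs, a KCNC2 molecule was seen in 89.0% of SST/LHX6-like nuclei (80.7 to 94.6%), 80.0% of RELN/VIP-like nuclei (70.8 to 87.3%) and 6.90% of cluster 0. In oligodendrocyte-like nuclei, which carried it at 93.5 CPM, the share was 9.44%, so the share in cluster 0 did not exceed that in a glial class. Unthinned, the 4 shares were 96.7%, 96.0%, 22.3% and 13.3%, at median depths of 5777, 6161, 5530 and 1490.5 UMIs. KCNC2 was also seen in precursor-like nuclei at 644 CPM, 0.71 times the neuronal mean.

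**Figure D3:**
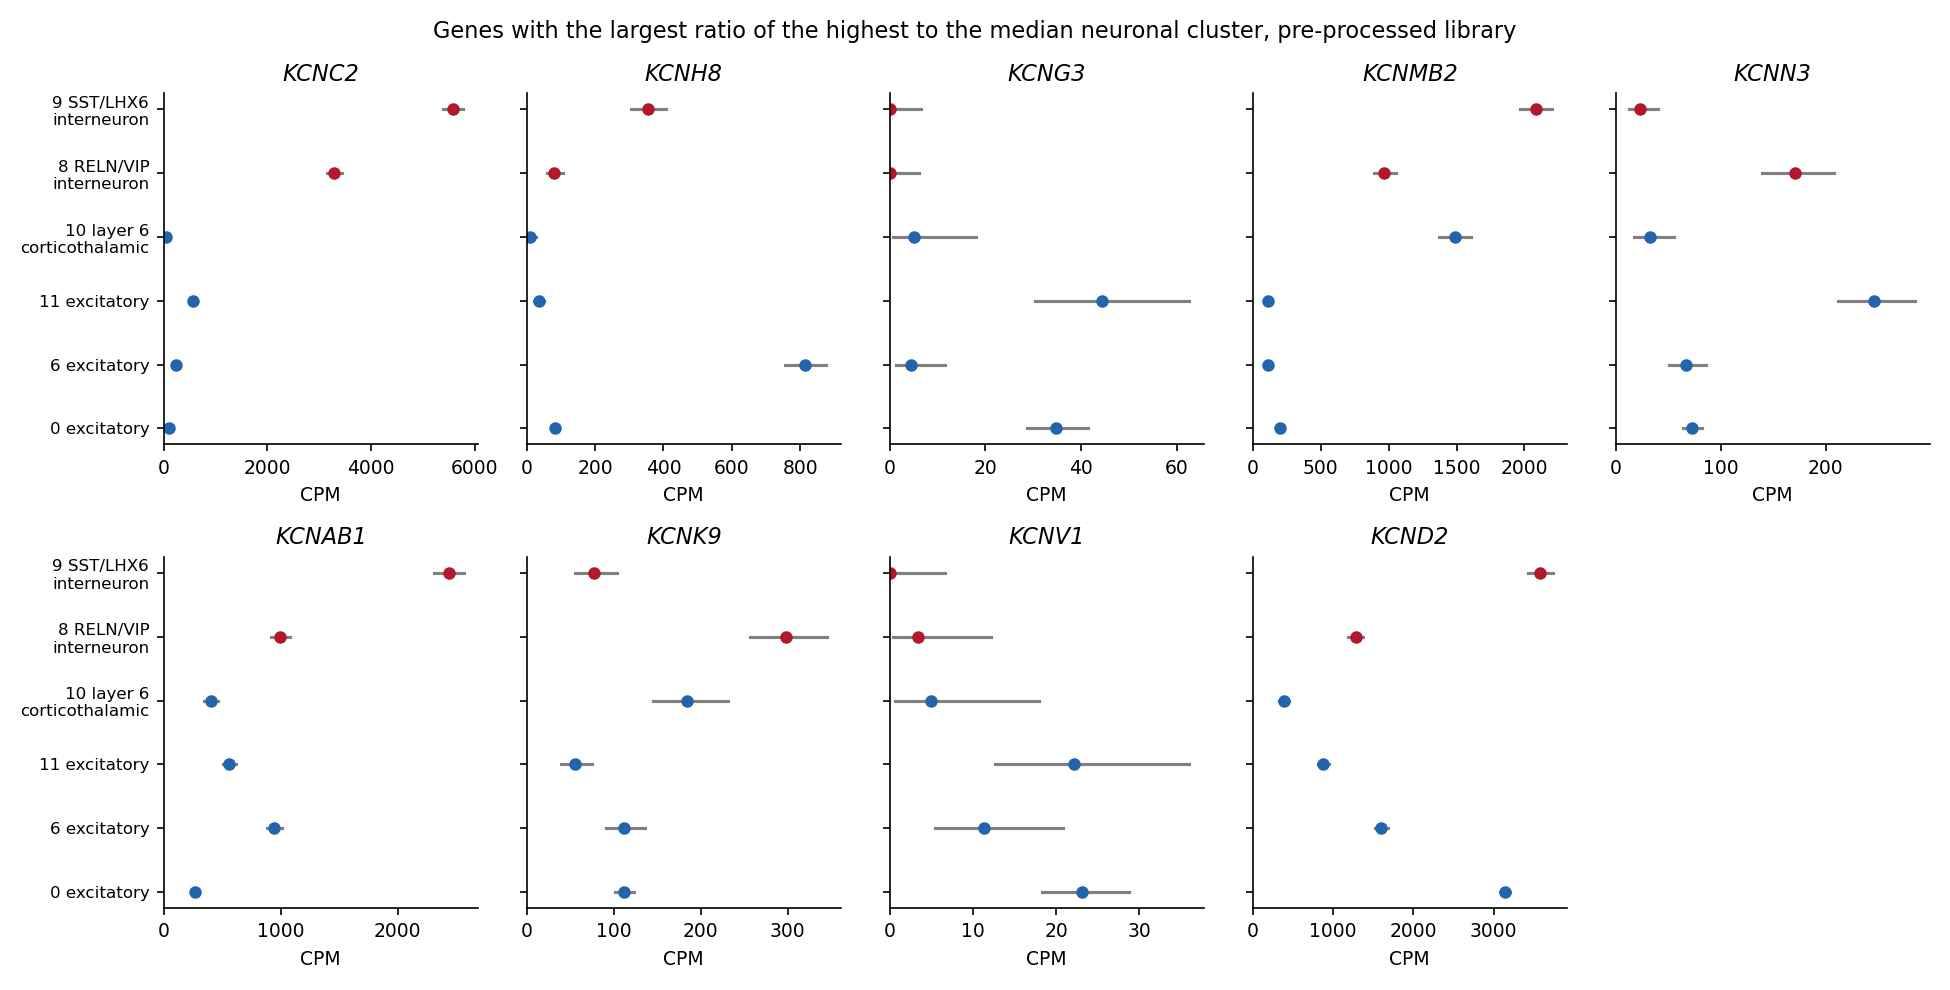
CPM of 9 of the 10 genes with the largest ratio of the highest to the median neuronal cluster (panels), in the 6 neuronal clusters of the pre-processed library, with 95% counting intervals as bars. Red points are interneuron clusters and blue points the other 4. KCNC2 and KCNAB1 are highest in the 2 red clusters, and KCNH8 is highest in cluster 6.

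KCNC4, the other Kv3 gene listed, had only 197 UMIs in neurons (29.7 CPM) and was highest in astrocyte-like nuclei at 67.5 CPM. That ratio of 2.27 (1.71 to 2.99) did not reach the astrocyte limit set by the neuronal markers, which was 2.52.

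KCNAB1 encodes a cytoplasmic beta subunit that can speed the inactivation of Kv1 channels. It was at 2436 CPM (2308 to 2569) in SST/LHX6-like interneurons, 996 CPM in RELN/VIP-like interneurons, 946 CPM in cluster 6 and 269 CPM in cluster 0. In glia KCNAB1 lay between 43.4 CPM in oligodendrocytes and 131 CPM in precursors. It was among the 15 genes with neurons at least 2-fold above every glial class.

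The Kv2 gene KCNB2, a delayed rectifier of the soma and dendrites, varied less among neurons. Its level ran from 736 CPM in SST/LHX6-like interneurons to 2942 CPM in cluster 6, 1.33-fold above the median cluster. In precursor-like nuclei it was at 1454 CPM, 0.60 times the neuronal mean, and in the other glial classes at 0.06 to 0.10 times that mean.

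The silent Kv subunits (KCNF1, KCNG3, KCNS3, KCNV1 and KCNV2) form no channel alone and change the currents of Kv2 subunits. All were sparse, with 536 UMIs together in the pre-processed library. KCNG3 was at 34.7 CPM in cluster 0 and 44.3 CPM in cluster 11, a ratio of 1.28 (0.84 to 1.90), and had 0 UMIs in both interneuron clusters. KCNV1 likewise stood at 23.1 CPM in cluster 0 and 22.1 CPM in cluster 11, with 0 UMIs in SST/LHX6-like nuclei. KCNS3, with 82 UMIs in neurons and so under the minimum for the cluster comparison, showed the opposite order. Of those UMIs 55 were in SST/LHX6-like nuclei (98.2 CPM), 18 in RELN/VIP-like nuclei (30.2 CPM) and the rest in clusters 0, 10 and 11. KCNF1 was highest in cluster 6 at 27.2 CPM, from 24 UMIs. KCNV2 had 1 UMI in all.

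The Kv4 genes and their KChIP partners, calcium-binding proteins, carry the A-type current that delays firing. KCND2 was highest in precursor-like nuclei at 4793 CPM (4541 to 5055), against a neuronal mean of 2392 CPM, a ratio of 2.0 (1.89 to 2.12). The limit set by the neuronal markers in precursors was 2.36, so KCND2 did not pass it. Within neurons KCND2 was at 3581 CPM in SST/LHX6-like interneurons, 3143 CPM in cluster 0 and only 386 CPM in the layer 6 cluster. KCND3 had another order, with 1332 CPM in cluster 11, 1101 CPM in RELN/VIP-like interneurons and 471 CPM in cluster 6, and was at 417 CPM in precursors.

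KCNIP4 supplied 152984 of the 341285 potassium channel UMIs of the pre-processed library. It was at 27519 CPM (27344 to 27694) in cluster 0, 18562 CPM in the layer 6 cluster, 6437 CPM in RELN/VIP-like and 2209 CPM (2088 to 2336) in SST/LHX6-like interneurons. The excitatory and layer 6 clusters thus lay above both interneuron clusters. In glial classes KCNIP4 was at 927 to 1906 CPM, which is 0.05 to 0.10 times the neuronal mean. The same ratio for the synaptic vesicle gene SYT1 was 0.066 to 0.134. KCNIP3 was at 905 CPM in precursors, 3.14-fold (2.75 to 3.58) above the neuronal mean of 288 CPM. Among neurons KCNIP3 was highest in cluster 6 at 547 CPM and in the layer 6 cluster at 478 CPM, and lowest in SST/LHX6-like interneurons at 25 CPM.

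The EAG family comprises further voltage-gated channels, among them KCNH2, the channel of a repolarizing current of the heart. KCNH8 was the most uneven among neurons. It was at 814 CPM (755 to 875) in cluster 6, 354 CPM (306 to 406) in SST/LHX6-like interneurons and 9.95 CPM in the layer 6 cluster. In precursor-like nuclei KCNH8 was at 527 CPM, 2.72-fold (2.28 to 3.23) above the neuronal mean. That ratio was past the precursor limit of 2.36, which lies within its interval. KCNH7 was at 4067 CPM over all neurons, highest in the layer 6 cluster at 5239 CPM and lowest in RELN/VIP-like interneurons at 1467 CPM. KCNH3 was at 162 CPM in the layer 6 cluster and 128 CPM in cluster 0, and under 10 CPM in both interneuron clusters. KCNH5 was at 188 CPM in cluster 6 and 166 CPM in precursors. For KCNH2 the 2 interneuron clusters were highest, at 50.0 and 43.6 CPM, from 28 and 26 UMIs, and precursors at 31.8 CPM did not differ from the neuronal mean beyond counting error (ratio 1.37, 0.61 to 2.67).

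KCNQ subunits carry the M current, a brake on firing that is released by muscarinic receptors. KCNQ5 had high levels in both microglia and excitatory neurons. In microglia-like nuclei it was at 5763 CPM (5360 to 6189) before and 6599 CPM (6374 to 6829) after processing. Cluster 0 reached 5623 CPM (5544 to 5702), so pre-processed microglia and cluster 0 had overlapping intervals. The layer 6 cluster was at 4187 CPM, cluster 6 at 2533 CPM, cluster 11 at 2292 CPM, RELN/VIP-like interneurons at 927 CPM and SST/LHX6-like interneurons at 159 CPM (128 to 196). In the other glial classes KCNQ5 was at 274 to 432 CPM.

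Thinned to 900 UMIs, KCNQ5 gave a UMI in 96.5% of microglia-like nuclei from the pre-processed library (90.0 to 99.3%), 95.3% of cluster 0 and 14.3% of SST/LHX6-like nuclei. In astrocyte-like and oligodendrocyte-like nuclei the shares were 20.2% and 17.8%. Unthinned, the 5 shares were 96.5%, 99.6%, 37.4%, 35.1% and 28.3%, at median depths of 1291, 5530, 5777, 2594 and 1490.5 UMIs. The ratio of microglia to all neurons was 1.49 (1.38 to 1.60), which is below the strict limit of 3.77 set by NEFL. The 7 neuronal markers in microglia-like nuclei summed to 1797 CPM before and 56.8 CPM after processing, with 4 of the 7 at 0 UMIs after it, and SYT1 went from 1218 to 46.7 CPM. The log2 ratio of KCNQ5 in the same nuclei was 0.19 (0.08 to 0.31), and the part of neuronal RNA in its microglial level was not tested.

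KCNQ3, which forms heteromers with KCNQ5, had a different distribution. It was at 2788 CPM in SST/LHX6-like interneurons, 2664 CPM in the layer 6 cluster and 1139 to 1546 CPM in the other neuronal clusters. Astrocyte-like nuclei held KCNQ3 at 1082 CPM, 0.71 times the neuronal mean, and microglia-like nuclei at 198 CPM. The KCNE genes, small single-pass partners of KCNQ and other subunits, were at the edge of detection. KCNE1 had 5 UMIs, KCNE2 had 4 and KCNE4 had 3 over both libraries.

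**Figure D4:**
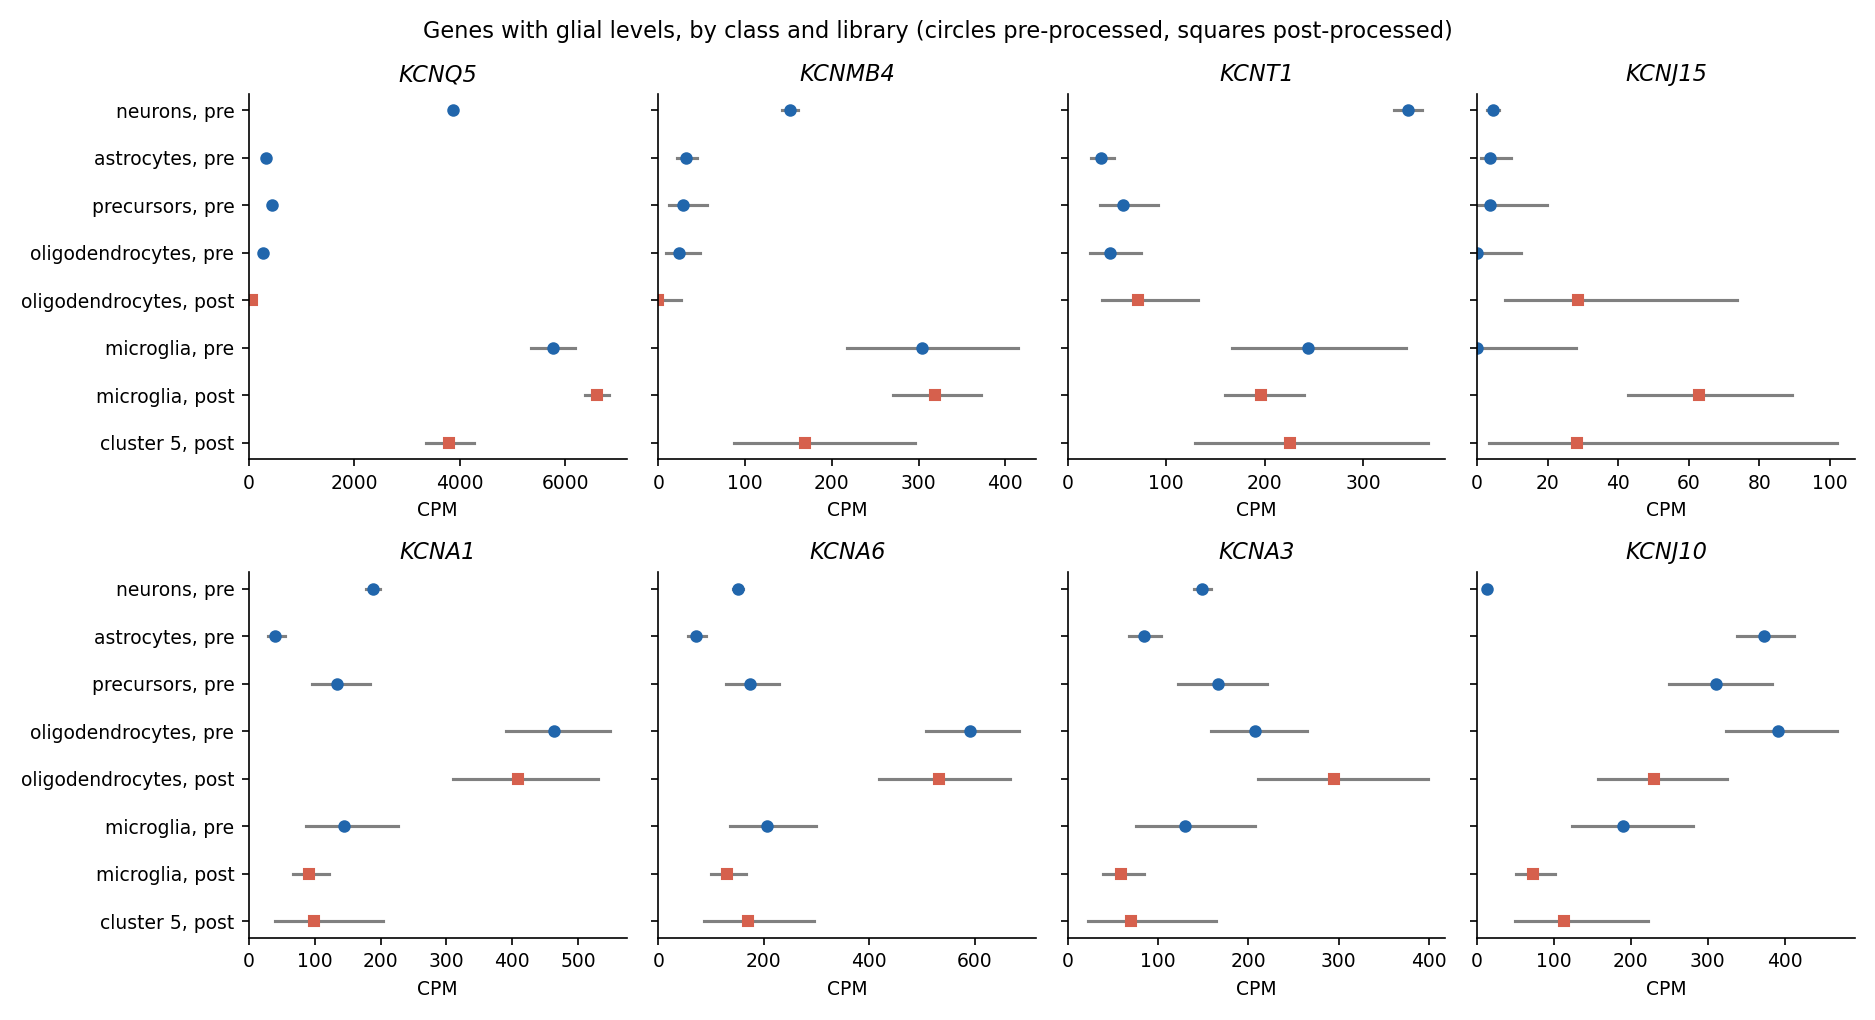
CPM of 8 potassium channel genes with glial levels (panels) by class and library, with 95% counting intervals as bars. Circles are pre-processed and squares post-processed. KCNQ5, KCNMB4 and KCNT1 have similar microglial values in both libraries, KCNA1 and KCNA6 are highest in oligodendrocytes of both, and KCNJ15 has UMIs in post-processed but not in pre-processed microglia-like nuclei.

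Calcium-activated SK channels underlie the after-hyperpolarization, and KCNT1 encodes a sodium-activated channel. KCNN2 was at 1294 CPM in RELN/VIP-like interneurons and 465 CPM in cluster 11, with astrocytes at 359 CPM and precursors at 499 CPM. KCNN3 was at 183 CPM in astrocytes and 191 CPM in precursors, 1.97-fold (1.66 to 2.31) and 2.05-fold (1.52 to 2.71) above the neuronal mean, and neither ratio passed the limit. Among neurons KCNN3 was highest in cluster 11 at 246 CPM and lowest in SST/LHX6-like interneurons at 23.2 CPM. KCNN1 was under 25 CPM in each neuronal cluster. KCNT1 was at 346 CPM in neurons, with 187 to 452 CPM in single clusters. In microglia-like nuclei KCNT1 was at 244 CPM before and 197 CPM after processing, above the 33.7 to 56.6 CPM of the other glial classes. The ratio of pre-processed microglia to neurons was 0.70 (0.48 to 0.998), below the limit of 3.77. The part of neuronal RNA in the microglial KCNT1 level was not tested.

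The BK beta subunits change the calcium sensitivity and inactivation of large-conductance channels. KCNMB2 was at 2082 CPM (1964 to 2205) in SST/LHX6-like interneurons, 1485 CPM in the layer 6 cluster and 969 CPM in RELN/VIP-like interneurons, but 109 to 201 CPM in clusters 0, 6 and 11. Precursor-like nuclei held KCNMB2 at 1687 CPM (1539 to 1846), 3.47-fold (3.15 to 3.83) above the neuronal mean. KCNMB4 was also high in the layer 6 cluster but low in both interneuron clusters, with 291 CPM in the former, 253 CPM in cluster 6, and 10.1 and 17.9 CPM in the RELN/VIP-like and SST/LHX6-like interneurons. Microglia-like nuclei were at 305 CPM for KCNMB4 before and 319 CPM after processing, 2.01-fold (1.43 to 2.75) above the neuronal mean. That ratio was below the strict limit, and the part of neuronal RNA in the KCNMB4 values was not tested. KCNMB3 had 30 of its UMIs in astrocytes (28.1 CPM), 5.17-fold (3.08 to 8.64) above neurons.

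Among inward rectifiers, KCNJ10 is the main glial potassium buffering channel. It was at 373 CPM (337 to 412) in astrocytes, 391 CPM (323 to 468) in oligodendrocytes, 311 CPM (250 to 383) in precursors and 190 CPM (123 to 281) in microglia-like nuclei, against 13.4 CPM in neurons. The intervals of astrocytes, oligodendrocytes and precursors overlapped for KCNJ10, and all 4 glial classes passed the limit, at 14.2-fold to 29.1-fold above neurons. That limit rests on neuronal markers and takes no account of RNA from other glia. Microglia-like nuclei before processing also held oligodendrocyte markers at 1736 CPM and astrocyte markers at 769 CPM. The part of such RNA in their KCNJ10 level was not tested. KCNJ10 was seen in 29.0% of astrocyte-like, 30.6% of oligodendrocyte-like and 1.2% of neuron-like nuclei after thinning to 900 UMIs. Unthinned, these shares were 56.9%, 46.7% and 6.19%, at median depths of 2594, 1490.5 and 4884 UMIs. In post-processed nuclei KCNJ10 was at 230 CPM in oligodendrocytes and 73.0 CPM in microglia. KCNJ13, known from epithelia, had 40 UMIs in astrocytes (37.5 CPM) and 5 in neurons, a ratio of 49.7 (19.6 to 161).

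KCNJ3, KCNJ6 and KCNJ9 form the G protein-gated channels that carry slow inhibition, and all 3 had neurons at least 2-fold above every glial class. KCNJ3 was the most even of the 36 genes among neurons, from 942 to 1158 CPM over the 6 clusters. KCNJ6 ran from 914 to 1819 CPM and KCNJ9 from 53.6 to 157 CPM. KCNJ4, a strong rectifier of dendrites, was at 47.3 CPM in neurons and 0 to 15.2 CPM in glia. KCNJ9 lies beside KCNJ10 in the RefSeq gene order. Neurons were the highest class for KCNJ9 and the lowest for KCNJ10, while among glia both genes were highest in oligodendrocytes and next in astrocytes. KCNJ8, a subunit of ATP-sensitive channels in pericytes, had 18 UMIs over both libraries, 7 of them in the small vascular cluster.

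The two-pore channels carry background currents that hold the resting potential. KCNK9, KCNK3 and KCNK12 had neurons at least 2-fold above every glial class. KCNK9 was at 298 CPM in RELN/VIP-like interneurons, 184 CPM in the layer 6 cluster and 55.3 CPM in cluster 11. KCNK3 was highest in SST/LHX6-like interneurons at 51.8 CPM. KCNK10 was highest in the layer 6 cluster at 226 CPM and in SST/LHX6-like interneurons at 220 CPM, with a ratio of 1.03 (0.78 to 1.36). KCNK12 was at 125 CPM in cluster 11 and 119 CPM in cluster 0, and lowest in the layer 6 cluster at 17.4 CPM.

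The comparison of libraries over all nuclei mixes the level in each cell type with the share of each type, and in sums over all nuclei fewer nuclei of a type and less RNA per nucleus cannot be told apart. Potassium channel genes made up 3.56% of all UMIs in the pre-processed and 0.643% in the post-processed library. Of the 43 genes with at least 20 UMIs, 32 were at least 2-fold lower in the post-processed library, against a background of 24.7% of all 7615 genes with that many. At least 2-fold higher was 1 gene, against a background of 30.4%, and 10 lay within 2-fold. The median log2 ratio was −3.24 (−2.87 with genes at 0 set to their bound), against 0.33 over all 7615 genes. No post-processed nucleus fell in a neuron-like cluster, and the part of that in these ratios was not tested.

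**Figure D5:**
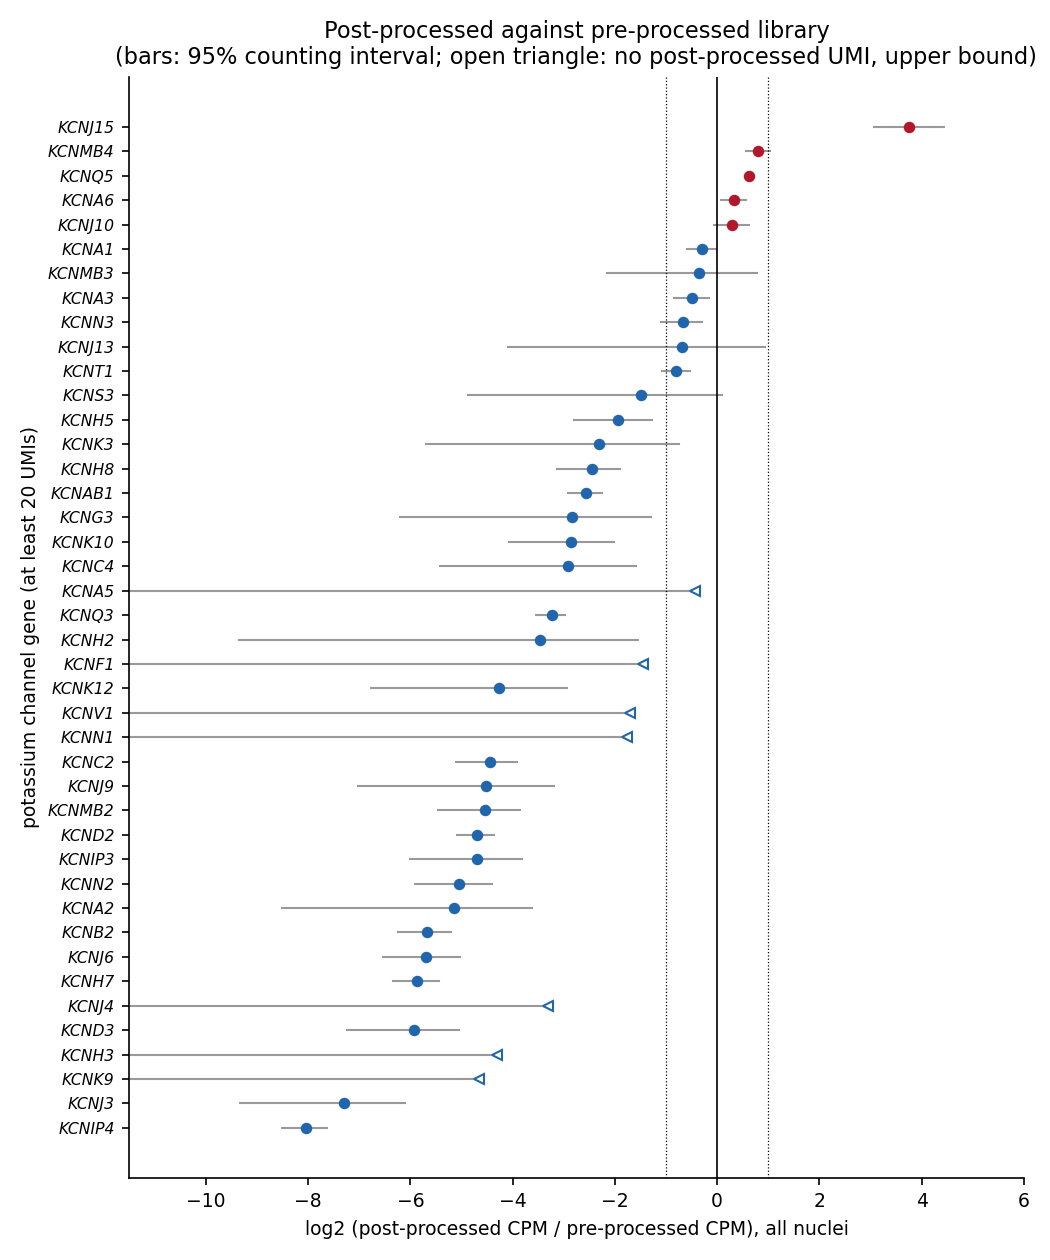
Log2 ratio of post-processed to pre-processed CPM over all nuclei for 42 of the 43 potassium channel genes with at least 20 UMIs (rows), with 95% counting intervals as bars. Dotted lines mark 2-fold in either direction, and open triangles mark genes with 0 post-processed UMIs at the bound that 3 counts give. Most genes lie left of the lower dotted line, and KCNJ15 is the only point right of the upper one.

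KCNIP4 had 15968 CPM before and 60.1 CPM after processing, which is −8.04 on the log2 scale (−8.50 to −7.64). For KCNJ3 the levels were 922 and 5.23 CPM and the log2 ratio −7.29 (−9.34 to −6.11), and for KCND3 they were 678 and 10.5 CPM and −5.93. KCNK9 had 948 UMIs before and 0 after processing, at least 25.2-fold lower, and KCNH3 had 741 and 0 UMIs, at least 19.7-fold lower. These 5 genes, all highest in neurons, had the lowest ratios with 0.5 counts added. KCNH7, KCNJ6, KCNB2, KCNA2, KCNN2, KCNIP3 and KCND2, at −5.86 to −4.70, lie below the bounds of both KCNK9 and KCNH3. KCNMB2, KCNJ9 and KCNC2, at −4.54, −4.53 and −4.45, lie below that of KCNH3. The order among these genes is thus not settled. In all, 7 of the 43 had 0 post-processed UMIs. For KCNA5 that bound was only 1.36-fold, so its place among the 32 rests on the 0.5 counts added.

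Of the 12 genes with a glial class at least 2-fold above neurons, KCNIP3, KCND2, KCNMB2, KCNC4 and KCNH8 were lower in the post-processed library, with log2 ratios of −4.70, −4.70, −4.54, −2.92 and −2.45. Except for KCNC4 these were highest in precursor-like nuclei, and the precursor-like cluster held 0 post-processed nuclei. Among the 10 genes within 2-fold, KCNQ5 had 3031 CPM before and 4660 CPM after processing (log2 ratio 0.62, interval 0.57 to 0.67). KCNMB4 had 134 and 234 CPM (0.81), KCNA6 had 156 and 196 CPM (0.33), and KCNJ10 had 82.4 and 101 CPM (0.30). KCNJ15, an inward rectifier, was the gene past 2-fold upwards. It had 37 UMIs (3.86 CPM) before and 40 UMIs (52.3 CPM) after processing, and its log2 ratio was 3.76 (3.08 to 4.44). Of these UMIs, 29 of the 37 before processing were in neuron-like nuclei and 31 of the 40 after it in microglia-like nuclei. KCNJ15 lies beside KCNJ6 in the RefSeq gene order, and KCNJ6 differed in the other direction, from 1109 to 20.9 CPM.

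Within microglia-like nuclei, 18 potassium channel genes had at least 20 UMIs over both libraries. At least 2-fold lower after processing were 11 of the 18, against a background of 12.3% of 4029 genes, and 1 was higher, against a background of 10.2%. The median log2 ratio was −1.27 over the 18 genes and −0.06 over all 4029. The count of 11 ranged from 1, with a minimum of 100 UMIs, to 19, with nuclei classed by marker UMIs. The share of all genes under those settings is not given. The lowest were KCNJ3, from 137 to 4.06 CPM, and KCNIP4, from 1713 to 75.1 CPM, and their log2 ratios were −4.80 (−8.23 to −3.02) and −4.50 (−5.05 to −4.01). KCNB2, KCNN2, KCNH7, KCNJ6, KCND2 and KCNC2, which were all higher in neurons than in microglia, followed with log2 ratios of −3.33 to −1.67. KCNA3 and KCNQ3, at −1.15 and −1.01, were just past 2-fold. The neuronal markers moved in the same direction (1797 to 56.8 CPM), and their part in these ratios was not tested.

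Within 2-fold lay 6 of the 18 genes. KCNQ5, KCNMB4 and KCNT1 had log2 ratios of 0.19, 0.05 (−0.44 to 0.60) and −0.32 (−0.90 to 0.32). KCNA6, KCNA1 and KCNAB1 had log2 ratios of −0.68, −0.69 and −0.87. Of these 6, KCNT1, KCNA1 and KCNAB1 were also higher in neurons than in microglia before processing. KCNJ15 had 0 of 131348 UMIs in microglia-like nuclei before processing and 31 of 492835 UMIs in those after it. That is at least 2.75-fold higher by the bound from 3 counts, with a lower end of the log2 interval of 1.08. KCNJ10 was lower, at 190 and 73.0 CPM (log2 ratio −1.39, interval −2.16 to −0.58). The 7 astrocyte markers in these nuclei summed to 769 CPM before and 150 CPM after processing, and the 10 precursor markers to 1599 and 840 CPM. The 4 oligodendrocyte markers went the other way, from 1736 to 2153 CPM. KCNJ10 itself was at 373 CPM in astrocytes, 311 CPM in precursors and 391 CPM in oligodendrocytes before processing. The part of any of these lists in the KCNJ10 ratio was not tested.

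In oligodendrocyte-like nuclei 8 of 14 genes were at least 2-fold lower after processing, against a background of 13.4% of 2947 genes, and 0 were higher, against a background of 4.48%. The median log2 ratio was −2.21 over the 14 genes and −0.07 over all 2947. The count of 8 was 2 with a minimum of 100 UMIs and 21 with nuclei classed by marker UMIs, again without the share of all genes. KCNIP4 was at 1329 and 28.7 CPM (log2 ratio −5.36, interval −7.41 to −4.16), and KCNJ3 went from 48 UMIs to 0, at least 7.44-fold lower. Here KCNQ5 differed in the same direction, with 274 and 64.7 CPM (log2 ratio −2.01, interval −3.26 to −1.09). The neuronal markers in these nuclei summed to 1022 CPM before and 108 CPM after processing, and their part was not tested. KCNA1, KCNA6, KCNQ3, KCNA3, KCNJ10 and KCNT1 stayed within 2-fold, with log2 ratios of −0.75 to 0.74.

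A list of 38 genes for channel partners and potassium transport gave a context for these values, and 19 of them were listed. Of the 17 with at least 20 UMIs, 11 were at least 2-fold lower (background 24.7%) and 3 higher (background 30.4%) in the post-processed library, with a median log2 ratio of −1.66. DPP6 and DPP10 encode membrane partners of Kv4 channels. DPP6 was at 7017 CPM in precursors and 2786 CPM in neurons, the same order of these classes as KCND2, and went from 2543 to 114 CPM between the libraries. DPP10 was highest in neurons at 2928 CPM. Among the 3 higher genes were the cotransporter SLC12A2 (170 to 548 CPM) and ABCC9 (6.37 to 51.0 CPM), a partner of KCNJ8.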

How the data were processed

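Nuclear RNA of sheep cortex was measured in 1 pre-processed and 1 post-processed library. The deposited matrices hold whole-number UMI counts per gene and barcode, not normalized, per the values in the files. DRAGEN made them, per the submitters' processing notes. Not given in the sources used here are its version, the genome build and the rule for calling barcodes. The listed genes are only a part of the genome, so totals are not whole-library depth. The study states about 5000 nuclei per condition, and the matrices hold 2125 and 905 barcodes. A barcode counted as a nucleus from 100 detected genes on (2125 and 494).

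Joint clustering used Seurat 5.3.0 (R 4.3.3) on log-normalized counts (scale 10000) of the 2000 most variable genes without the potassium channel genes among them, with 30 principal components and resolution 0.5 and without integration. No doublet caller was run and no doublets were removed. Clusters were named from marker lists by a rule written after the clusters had been seen: the closest class needed at least 3 markers raised 1.5-fold over the 25th percentile of the other clusters. Clusters 2, 5 and 12 stayed unnamed because their leading genes or depth went against a name. Class names are rebuilt and may differ from the study's.

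Levels are summed UMIs per 1000000. Ratios are log2 with 0.5 counts added, and a gene needed at least 20 UMIs over the groups compared. Intervals are exact Poisson, exact conditional binomial or Clopper-Pearson (scipy 1.17.1), and a fold against 0 uses 3 counts per library. Genes named in full were the 3 with the most UMIs in each family, those with at least 100 UMIs and a highest level outside neurons, the 5 highest and 5 lowest library ratios, and the 10 with the largest ratio among neuronal clusters. Other members named, such as KCNS3, KCNA5 and KCNJ8, were chosen after their values were seen. Single values of 1 member and 1 list gene are not reported here, and both stay in the counts. Members and lists were chosen with earlier results of these data known. The ratio calculation was tested on simulated data. Alternatives changed the barcode minimum, clustering, class rule, scale, UMI minimum, fold and deepest nuclei.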

Additional observations from a re-analysis of the deposited data

Results flagged for a closer look

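KCNQ5 was within 2-fold between the libraries in 1 class and more than 2-fold lower after processing in another. Its log2 ratio of post-processed to pre-processed CPM was 0.19 in microglia-like and −2.01 in oligodendrocyte-like nuclei. The neuronal markers went from 1797 to 56.8 CPM in microglia-like and from 1022 to 108 CPM in oligodendrocyte-like nuclei, and their part was not tested. Each condition has 1 library, so the difference between the classes was not tested.

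The 411 post-processed barcodes with fewer than 100 detected genes, which entered no comparison, held 28995 UMIs, of which 144 came from 19 potassium channel genes. KCNQ5 had 86 UMIs there, KCNT1 had 17, KCNA6 had 10, KCNMB4 had 5 and KCNIP4 had 4. Each of these 5 counts exceeds the 3 counts that a count of 0 allows.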

How the results depend on the processing

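Of the recomputed counts and medians, 98 stayed near the value given above (for counts, within 1.5 times) and 20 moved. A reversal was possible only for the median over all nuclei, which kept its sign, and not for the counts. Over all nuclei the number of higher genes became 2 with a minimum of 5 UMIs and 0 with a minimum of 100. In microglia-like nuclei the lower genes became 6 without a minimum of detected genes, 19 with classes from marker UMIs, 1 with a minimum of 100 UMIs and 6 at a fold of 4, and the higher genes 2 at resolution 0.2, 0 with classes from marker UMIs and 0 with a minimum of 100 UMIs. In oligodendrocyte-like nuclei the lower genes became 21 with classes from marker UMIs, 17 with a minimum of 5 UMIs and 2 with a minimum of 100. The genes highest in neurons became 3 with classes from marker UMIs and 9 at a fold of 4, those with a glial class above neurons 7 and 3, and those above neuronal background 3 and 3. At a limit taken from the median neuronal marker ratio, an alternative chosen after seeing the data, 26 genes were above that background. The share of all genes past that lower limit was not counted, so the 26 cannot be read as particular to potassium channel genes. Among neuronal clusters 4 genes passed a fold of 4, also chosen after seeing the data. Fewer genes could pass a fold of 4 or a minimum of 100 UMIs by construction. The counts under alternative settings have no share of all genes beside them, so they show only how the counts moved. For the other settings the cause was not tested. Scaling by the median of gene ratios subtracted the median log2 ratio of each comparison. That median was 0.33 over all nuclei, −0.06 in microglia-like and −0.07 in oligodendrocyte-like nuclei. At resolution 1.0 no cluster was named microglia-like, so that setting gives no microglial value. No paired analysis was possible because each condition has 1 library. The post-processed depth limits detection to 3.92 CPM over all nuclei and to 21.6 CPM in its oligodendrocyte-like nuclei.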

Other observations

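The vascular-like cluster, led by ABCB1 and RGS5, held 10 pre-processed and 29 post-processed nuclei. After processing it had KCNN3 at 884 CPM (642 to 1186, from 44 UMIs) and KCNAB1 at 944 CPM (694 to 1255, from 47 UMIs), which were 80.0% and 62.7% of the post-processed UMIs of these genes. KCNN3 had 0 UMIs in the 10 pre-processed nuclei, whose 19344 UMIs allow up to 155 CPM, and KCNAB1 had 8. KCNJ8 had 3 UMIs there before and 4 after processing, and KCNH8 had 11 UMIs after it.

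Cluster 12 was closest to neurons but stayed unnamed because DCN, a marker of fibroblasts, was among its leading genes. Its 45 pre-processed nuclei had KCNB2 at 6152 CPM (5944 to 6365), above the 2942 CPM (2830 to 3058) of the highest named neuronal cluster, and KCNAB1 at 1581 CPM. Cluster 5, with 229 of its 230 nuclei post-processed and a median of 234.5 UMIs, was closest to microglia and stayed unnamed. It held KCNQ5 at 3794 CPM (3354 to 4276) and neuronal markers at 42.3 CPM, with SYT1 at 0 UMIs.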
